A study of Homo sapiens with 6 samples.

Results

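The genes described here encode troponin, tropomyosin, actin and 2 actin-binding proteins of the cardiac thin filament. They are TNNT2, TNNT1, TNNI1, TNNI3, TNNC1, TPM1, ACTC1, ACTA1, LMOD2 and NEBL, 10 of the 28092 rows of the expression table, taken by gene symbol. All 10 passed the filter on low counts, as did 19558 rows in all. The samples were cardiomyocytes differentiated from the human embryonic stem cell line H9, which is an established line, in 2 groups of 3, wild type (WT-CMs) and ADPRHL1 knockout (KO-CMs), collected no later than 3 days after re-seeding. ADPRHL1 is a heart-enriched relative of the ADP-ribosylhydrolases that is regarded as a pseudoenzyme, and the series title ties it to signalling through the kinase ROCK. The labels do not say how the knockout was made, how many clones it comprised, or whether replicates were separate cultures, so the p-values reflect only how these samples vary among themselves, and that variation could be technical.

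The thin filament is a double strand of actin with tropomyosin lying in its groove and a troponin complex at regular intervals along it. When calcium binds troponin C, troponin I releases actin, tropomyosin shifts, and myosin heads can attach. Troponin I and troponin T exist as slow skeletal and cardiac forms, and in the human heart the slow skeletal troponin I gene TNNI1, which dominates in the fetus, is replaced by TNNI3 around and after birth. The filament's pointed end is lengthened by leiomodin and capped by tropomodulin, and nebulette binds actin near the Z-disc.

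The promoters of 4 of these genes are printed because they hold letters known as binding sites of muscle transcription factors. Each stretch is the 150 bases before a RefSeq transcription start on GRCh38.p14, read 5′ to 3′ along the minus strand, on which all 4 genes lie. The ACTC1 stretch is chr15:34795550-34795699, the ACTA1 stretch chr1:229434095-229434244, the TNNT2 stretch chr1:201377681-201377830 and the TNNI3 stretch chr19:55157733-55157882. Capitals mark the CArG box, bound by serum response factor (SRF), the letters CATTCC, bound by TEAD factors, and the letters GATAA, bound by GATA factors, on either strand.
ACTC1: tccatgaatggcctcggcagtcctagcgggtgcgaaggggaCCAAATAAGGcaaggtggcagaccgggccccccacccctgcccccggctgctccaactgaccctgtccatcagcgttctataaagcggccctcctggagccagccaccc
ACTA1: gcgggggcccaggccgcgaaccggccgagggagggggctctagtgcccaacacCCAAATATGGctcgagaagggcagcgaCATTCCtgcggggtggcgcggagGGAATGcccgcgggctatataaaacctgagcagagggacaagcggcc
TNNT2: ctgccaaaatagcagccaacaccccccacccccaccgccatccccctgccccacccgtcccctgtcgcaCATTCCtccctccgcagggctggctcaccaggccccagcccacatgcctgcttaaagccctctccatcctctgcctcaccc
TNNI3: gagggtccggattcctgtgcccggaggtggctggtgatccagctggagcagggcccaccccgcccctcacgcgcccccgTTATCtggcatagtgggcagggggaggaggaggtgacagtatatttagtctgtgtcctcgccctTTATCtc

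Of 35116 RefSeq promoter windows of 250 bases upstream, 1.16% held a CArG box on either strand. Among the 14 windows that 8 of the 10 genes have in this table, 2 did, at -109 to -100 in ACTC1 and at -97 to -88 in ACTA1, so the box lies at nearly the same distance from the start in both striated actin genes. CATTCC, which was in 11.9% of all windows, was in 3 of the 14, in ACTA1, TNNT2 and a further start of ACTC1. GATAA, in 20.4% of all windows, was in 4, belonging to TNNI3, TNNT2, LMOD2 and NEBL, and the TATAAA letters, in 10.7%, were in 3, belonging to ACTC1, ACTA1 and TNNT1. The E-box letters CANNTG were in 61.8% of all windows and in 11 of the 14. The MEF2 site was in 2.80% of all windows and in 0 of the 14. Each motif was searched on both strands, either in the letters given or, for the CArG box and the MEF2 site, by their standard patterns, and different motifs were allowed to overlap. These are letter matches within the windows, and binding was not measured.

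All libraries were of nearly equal depth, 21179650 to 21405718 estimated counts each, and 3 counts stand for 0.141 CPM (counts relative to library size). ADPRHL1 ranged over 79.4 to 83.7 CPM in the wild-type libraries and only 5.80 to 7.58 CPM in those of the knockout, so its level matched the label of every library. Each change is a log2 fold change (knockout minus wild type) in the quasi-likelihood test of edgeR, its p adjusted by Benjamini-Hochberg over all 19558 genes. Levels per sample are CPM scaled by the trimmed mean of M-values (TMM), in the order of replicates 1, 2 and 3. At an adjusted p under 0.05, 57% of all genes passed, 28.6% being lower and 28.4% higher in knockout. Of 17 cardiomyocyte markers outside the 10 genes, 16 were lower, with a median log2 fold change of -1.92, and their summed level was 20792 to 20860 CPM in wild-type samples but 6318 to 6821 CPM in knockout samples. The 12 fibroblast markers summed to 11054 to 11321 CPM in wild-type samples but 15072 to 17841 CPM in knockout samples, with 9 higher and 3 lower. The 8 endothelial markers summed to 202 to 205 CPM and 298 to 332 CPM, with 6 higher and 1 lower. In bulk RNA, fewer cardiomyocytes and less RNA per cardiomyocyte cannot be told apart, which touches every result that follows, and the part of cell composition in these changes was not tested.

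All 10 thin filament genes were lower in knockout, each with an adjusted p of 1.49e-06 or less, and in none did the groups overlap. A fall without overlap was seen in 32.5% of all genes tested. By 2-fold or more, 9 of the 10 were lower, TPM1 being the exception, against 6.02% of all genes tested. The share was 5.81% among the 1825 genes with a mean of at least 100 CPM, which leave out TNNI3, TNNT1 and LMOD2. For the 10 the median log2 fold change was -1.49, with a range of -2.04 to -0.87. The median of all genes tested was 0.0011. All 10 were also called lower by DESeq2, by limma-voom, and by limma on log2(FPKM + 1) and log2(FPKM + 0.1). In these, 49.1%, 57%, 58.2% and 57.9% of genes passed in either direction. Lower in knockout were 4794 of 9596, 5611 of 11139, 4118 of 8279 and 4079 of 8227 of those calls. Summed, the 10 genes accounted for 1.35 ± 0.009% of counts in the wild-type libraries but 0.620 ± 0.019% in the knockout libraries (mean ± SD, n = 3 a group, as for all values written with ±).

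**Figure D1:**
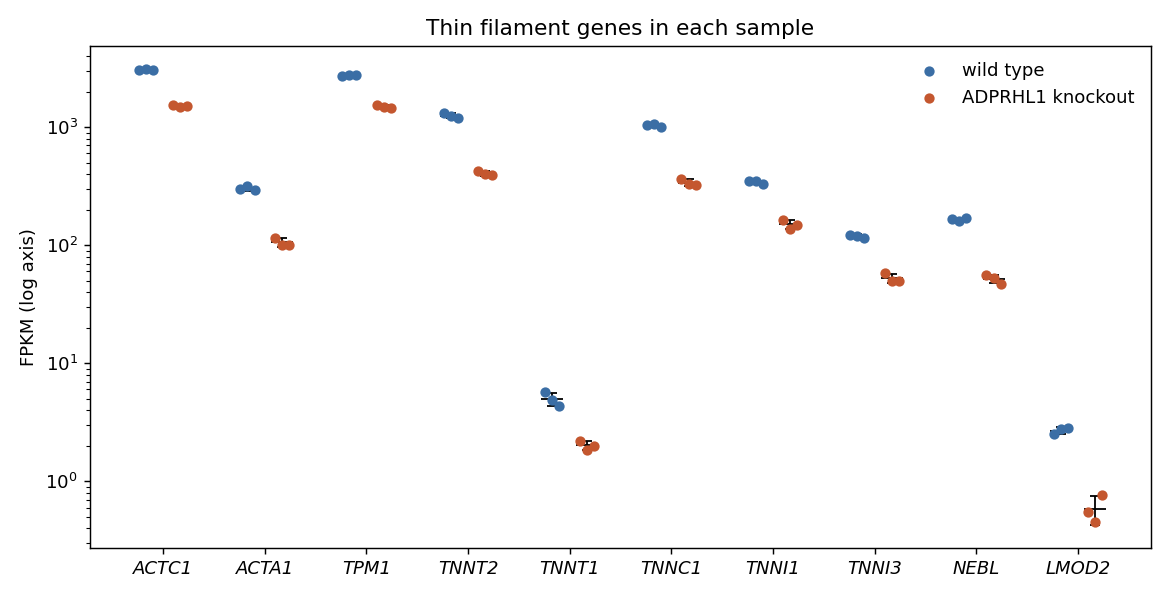
Level of each of the 10 thin filament genes in each sample as FPKM, a value per length, on a log axis. Points are samples, and the black marks the mean ± SD of 3 wild-type or 3 knockout samples. The knockout samples lie below the wild-type samples for every gene, from ACTC1 at 3075 and 1511 FPKM to LMOD2 at 2.70 and 0.587 FPKM on average.

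Troponin T ties the troponin complex to tropomyosin. The cardiac gene TNNT2 (chromosome 1, 201359014 to 201377680, on hg38 like all coordinates here) had levels of 1540, 1446 and 1403 CPM in the wild-type samples, against 490, 457 and 453 CPM in the knockout samples. The lowest wild-type sample was thus well above the highest knockout sample, and the means were 1463 ± 70.3 and 467 ± 20.3 CPM, a 3.13-fold difference (log2 fold change -1.65, SE 0.0542, edgeR adjusted p = 1.23e-10). The slow skeletal gene TNNT1 (chromosome 19, 55132698 to 55149206) was far lower in both groups, at 12.4, 11.2 and 10.8 CPM in wild type, against 4.78, 4.35 and 3.68 CPM in knockout. Its groups were also apart, by 2.69-fold (-1.43, SE 0.131, edgeR adjusted p = 1.49e-06). Within the troponin T family TNNT1 held 0.394 ± 0.032% of the summed FPKM of TNNT1, TNNT2 and TNNT3 in wild type and 0.489 ± 0.030% in knockout, so the cardiac form made up almost all of it in either group.

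Troponin I is the inhibitory subunit. TNNI1 (chromosome 1, 201403784 to 201421730) measured 429, 425 and 407 CPM in wild type, against 196, 160.5 and 179 CPM in knockout, 2.36-fold lower (-1.24, SE 0.0661, edgeR adjusted p = 1.61e-08). The cardiac gene TNNI3 (chromosome 19, 55151767 to 55157732) measured 101.7, 99.9 and 95.2 CPM in wild type, against 47.4, 39.6 and 41.3 CPM in knockout, 2.31-fold lower (-1.21, SE 0.0659, edgeR adjusted p = 1.10e-08). Both genes were lower in every knockout sample than in any wild-type sample, by nearly the same factor. TNNI3 shares the most sequence with other annotated genes: 20.2% of its 50-base stretches in GENCODE transcripts also occur in another annotated gene model, against 1.81% or less for the others.

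Troponin C, the calcium sensor of the complex, is encoded by TNNC1 in heart and slow muscle (chromosome 3, 52451100 to 52454041). Its values were 707, 719 and 681 CPM in wild type, against 244, 214 and 217 CPM in knockout. All wild-type samples lay above all knockout samples, and the means of 702 ± 19.7 and 225 ± 16.4 CPM differed 3.12-fold (-1.64, SE 0.0575, edgeR adjusted p = 2.07e-10). TNNC1 and TNNT2 fell by almost the same factor, and both troponin I genes by less.

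TPM1 (chromosome 15, 63042747 to 63071915) encodes alpha-tropomyosin, the main tropomyosin of the heart. It measured 4300, 4347 and 4399 CPM in wild type, against 2448, 2338 and 2345 CPM in knockout. The groups were apart, but the difference was 1.83-fold, the smallest among the 10 genes (-0.87, SE 0.0467, edgeR adjusted p = 9.56e-09). TPM1 is also made in cells other than muscle, through other promoters and exons.

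The actin genes ACTC1 and ACTA1 encode cardiac and skeletal alpha-actin, both of which are sarcomeric, and each has a CArG box in the stretch printed above. ACTC1 (chromosome 15, 34790230 to 34795549) measured 4849, 4928 and 4798 CPM in wild type, against 2402, 2254 and 2363 CPM in knockout, 2.08-fold lower (-1.05, SE 0.0481, edgeR adjusted p = 2.03e-09). ACTA1 (chromosome 1, 229431245 to 229434094) measured 445, 476 and 437 CPM in wild type, against 170, 144 and 150 CPM in knockout, 2.92-fold lower (-1.55, SE 0.0641, edgeR adjusted p = 1.02e-09). The groups were apart for both genes, and the fall of ACTA1 was the larger.

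LMOD2 and NEBL encode actin-binding proteins. LMOD2 (chromosome 7, 123655866 to 123664290) encodes leiomodin-2, which lengthens cardiac thin filaments at their pointed ends. It had the fewest counts, with 143, 163 and 165 estimated counts in wild type and 41.98, 30.3 and 44.4 in knockout, or 7.41 ± 0.569 and 1.81 ± 0.367 CPM. This was the largest fall of the 10, 4.09-fold (-2.04, SE 0.179, edgeR adjusted p = 9.79e-07), and also the least precise. In limma on log2(FPKM + 1), which understates changes of low genes, it was -1.22, and NEBL (-1.65), TNNT2 (-1.62), TNNC1 (-1.62) and ACTA1 (-1.52) fell further. NEBL (chromosome 10, 20779973 to 21293050) encodes nebulette, the cardiac relative of nebulin. It measured 1226, 1188 and 1243 CPM in wild type, against 401, 370 and 342 CPM in knockout, 3.29-fold lower (-1.72, SE 0.0598, edgeR adjusted p = 2.00e-10). Among all genes tested, 1.02% fell at least as far as LMOD2, 1.77% as far as NEBL, and 8.62% as far as TPM1. RefSeq features on either strand overlap the whole spans, introns included, of NEBL (7), TNNI1 (1), TPM1 (1) and ACTC1 (1). The sources used here do not say whether counting used strand. Whether reads of these pairs were mixed was not tested.

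Levels can be compared between genes only per length. In FPKM the wild-type order was ACTC1 (3075 ± 41.3), TPM1 (2759 ± 33.0), TNNT2 (1254 ± 61.3), TNNC1 (1041 ± 29.1), TNNI1 (344 ± 11.9), ACTA1 (304 ± 13.9), NEBL (165 ± 4.30), TNNI3 (119.6 ± 3.995), TNNT1 (4.99 ± 0.654) and LMOD2 (2.70 ± 0.174), and no neighbours in that order overlapped. In knockout ACTC1 (1511 ± 29.4 FPKM) and TPM1 (1491 ± 39.0 FPKM) overlapped, as did TNNI3 (52.4 ± 4.75 FPKM) and NEBL (51.9 ± 4.30 FPKM), which changed places. The order was otherwise that of wild type.

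The knockout samples differed from one another more than the wild-type samples did for several genes. The coefficient of variation of CPM was 2.84% in wild type and 9.95% in knockout for TNNI1, 2.32% and 8.01% for NEBL, and 7.68% and 20.2% for LMOD2. Knockout replicate 1 was the highest knockout sample for 9 of the 10 genes, LMOD2 being the exception, and replicate 2 the lowest for 7. The same replicate was highest for 12 of the 17 cardiomyocyte markers and had the lowest summed fibroblast marker level of the knockout samples, 15072 CPM against 15465 and 17841 CPM. The part of this in the spread of the 10 genes was not tested.

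Isoform ratios compare genes inside a sample and do not depend on library scaling. They were tested on log2 ratios of FPKM with a two-sided exact permutation test, which cannot go below 0.1 with 3 samples against 3, so none could pass 0.05. The ratio of TNNI3 to TNNI1 was 0.349, 0.345 and 0.348 in wild type and 0.352, 0.360 and 0.338 in knockout. The groups overlapped and the mean log2 difference was 0.012 (exact permutation p = 0.7, 0.7 adjusted over 3 ratios), with the 9 pairwise differences between samples running from -0.044 to 0.062. TNNI3 was 25.8 ± 0.121% of the summed FPKM of TNNI1 and TNNI3 in wild type and 25.9 ± 0.606% in knockout, while that sum was 464 ± 15.8 FPKM in wild type and 202 ± 18.2 FPKM in knockout.

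The ratio of ACTC1 to ACTA1 was 10.2, 9.76 and 10.4 in wild type and 13.4, 14.8 and 14.9 in knockout. Every knockout value was above every wild-type value, with a log2 difference of 0.50 (exact permutation p = 0.1, 0.15 adjusted over 3 ratios) and pairwise differences of 0.37 to 0.61. ACTA1 was 8.997 ± 0.262% of the FPKM of both sarcomeric actin genes in wild type and 6.52 ± 0.383% in knockout. The ratio of TNNT2 to TNNT1 was 233, 253 and 274 in wild type and 194, 217 and 196 in knockout, a log2 difference of -0.32 (exact permutation p = 0.1, 0.15 adjusted over 3 ratios). Its groups did not overlap, but the pairwise differences reached from -0.50 to -0.099, and TNNT1 rests on 78.2 to 263 estimated counts a sample. With the ratio taken on estimated counts, the groups nearly touched, with pairwise differences of -0.34 to -0.0049.

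**Figure D2:**
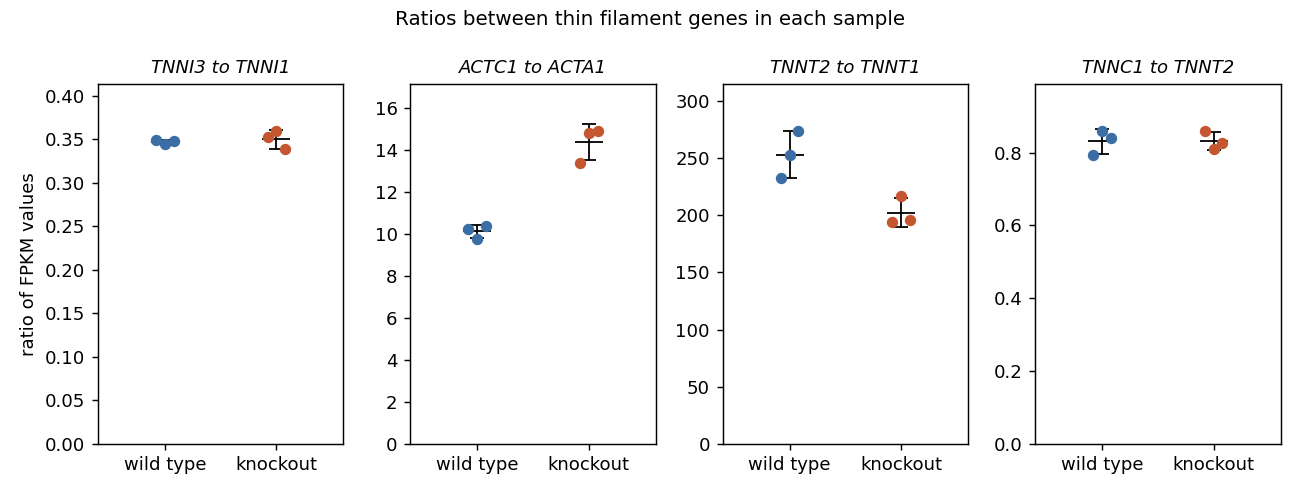
Ratio of FPKM values of 2 genes within each sample, on linear axes from 0. Points are samples, and the black marks the mean ± SD of 3 samples. The groups overlap for TNNI3 to TNNI1 (0.347 and 0.350) and TNNC1 to TNNT2 (0.831 and 0.832), and are apart for ACTC1 to ACTA1 (10.1 and 14.4) and TNNT2 to TNNT1 (253 and 202). Unlike the other ratios shown, TNNC1 to TNNT2 was chosen after the values were seen.

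A further 15 ratios were chosen after the values were seen, and 6 of them are given here without a test, with no rule set beforehand for which. Among those not given, groups were apart for ACTC1 to TPM1 and LMOD2 to ACTC1, for example, and overlapped for ACTC1 to ACTA2. TNNC1 to TNNT2 was 0.831 ± 0.035 in wild type and 0.832 ± 0.025 in knockout, so both subunits kept their proportion within the spread between replicates. TNNI1 to TNNT2 was 0.275 in wild type and 0.368 in knockout, and TNNI3 to TNNT2 was 0.095 and 0.129. Relative to troponin T, both troponin I genes were thus higher in knockout, by 0.42 and 0.43 on the log2 scale. ACTC1 to TNNT2 was 2.46 and 3.72, whereas ACTA1 to TNNT2 was 0.243 and 0.259 with overlapping groups. NEBL to ACTC1 was 0.054 in wild type and 0.034 in knockout.

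Some of these genes are neighbours, and the difference between neighbours was not tested. TNNI3 and TNNT1 lie 2560 bases apart on chromosome 19 with no coding gene between, and their log2 fold changes were -1.21 and -1.43. TNNT2 and TNNI1 lie 26103 bases apart on chromosome 1, with LAD1 between, and their log2 fold changes were -1.65 and -1.24.

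Among 29 other genes of the thin filament, its caps and its turnover, 25 were tested, of which 12 were lower, 9 higher and 4 did not pass, with a median log2 fold change of -0.31. Of all genes tested, 28.6% were lower and 28.4% higher. Over the 18 alternatives, 19 to 22 of these genes were called. XIRP2 (0.64) was called higher, but was -0.31 and -0.44, without a call, in limma on log2(FPKM + 1) and log2(FPKM + 0.1). TMOD3 (0.23) lost its call in both and without wild-type replicate 1, and CFL1 (0.20) without wild-type replicate 3. ACTG2 (0.46) did not pass but was called in several alternatives. The 3 fallers of smallest p were FHOD3, XIRP1 and TMOD1. FHOD3, a formin that assembles cardiac actin filaments, averaged 459 ± 12.8 CPM in wild type, against 132 ± 4.92 CPM in knockout (-1.80, SE 0.0494, edgeR adjusted p = 2.87e-11). XIRP1, an actin-binding protein of intercalated discs, averaged 428 ± 4.19 and 162 ± 5.87 CPM (-1.40, edgeR adjusted p = 1.39e-10). TMOD1, the tropomodulin that caps pointed ends in striated muscle, averaged 163 ± 5.37 and 62.3 ± 1.90 CPM (-1.39, edgeR adjusted p = 2.60e-10). LMOD1, the smooth muscle leiomodin, averaged 51.8 ± 3.66 and 16.7 ± 0.851 CPM (-1.63). The 3 risers of smallest p were ACTG1, TPM3 and LASP1. ACTG1, cytoplasmic gamma-actin, averaged 1623 ± 65.3 CPM in wild type, against 3190 ± 209 CPM in knockout (0.98, SE 0.0579, edgeR adjusted p = 2.47e-08). TPM3, whose products include slow muscle and cytoplasmic tropomyosins, averaged 300 ± 4.12 and 446 ± 19.2 CPM (0.57), and LASP1, an actin-binding LIM protein related to nebulette, 178 ± 7.04 and 246 ± 14.0 CPM (0.47).

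**Figure D3:**
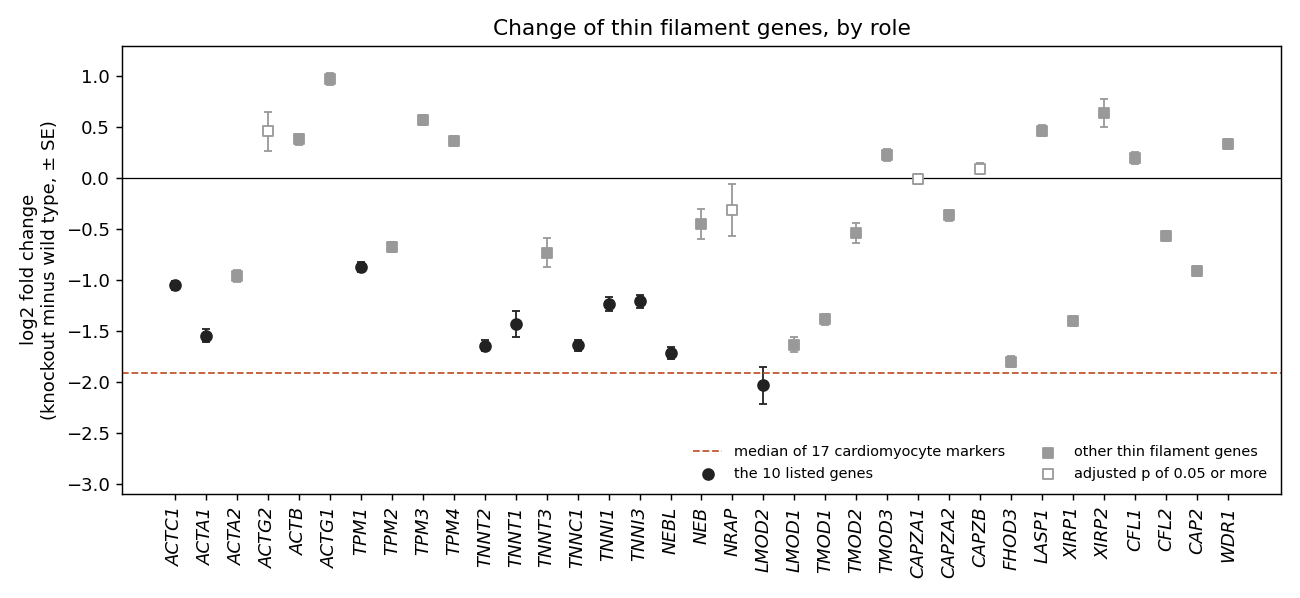
Log2 fold change (knockout minus wild type) ± SE of the 10 thin filament genes (black circles) and 25 other thin filament genes (grey squares, open where the adjusted p was 0.05 or more), from edgeR. The 10 genes lie between -2.04 and -0.87, the other genes between -1.80 and 0.98, and the dashed line is the cardiomyocyte marker median of -1.92.

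The paralogues gave the family view. In the actin family ACTA2, smooth muscle alpha-actin, fell like ACTC1, from 1462 ± 22.2 to 749 ± 59.1 CPM (-0.96), while ACTB, cytoplasmic beta-actin, rose from 5214 ± 158 to 6792 ± 337 CPM (0.38). ACTC1 was 38.3 ± 0.296% of the summed FPKM of 6 actin genes in wild type and 20.1 ± 0.549% in knockout, and ACTB with ACTG1 was 45.3 ± 0.274% and 71.5 ± 0.610%. The sum itself was 8024 ± 157 FPKM in wild type and 7536 ± 266 FPKM in knockout, so the makeup of the family differed far more than its sum. Among the tropomyosins TPM2 fell from 619 ± 15.2 to 387 ± 18.1 CPM (-0.68), whereas TPM4, a cytoplasmic form, rose from 668 ± 18.2 to 859 ± 39.5 CPM (0.36). TPM1 was 74.2 ± 0.224% of the summed tropomyosin FPKM in wild type and 60.9 ± 0.559% in knockout, and TPM3 with TPM4 was 12.02 ± 0.112% and 25.0 ± 0.535%.

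**Figure D4:**
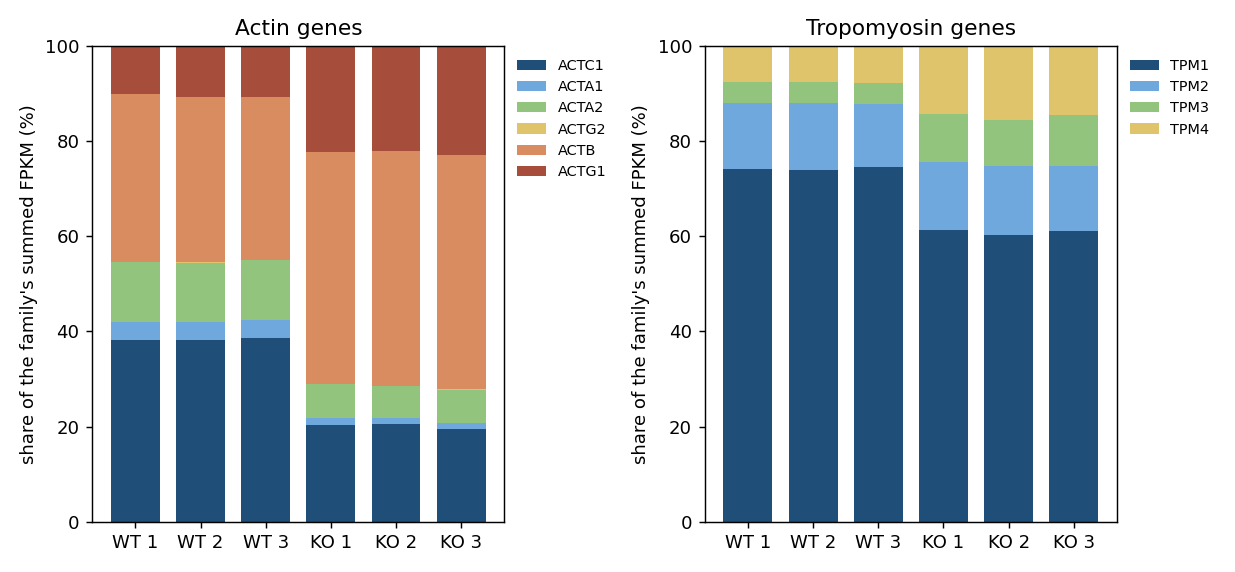
Share of each gene in the summed FPKM of its family, in percent, for 6 actin genes (left) and 4 tropomyosin genes (right), with 1 stacked bar for each wild-type (WT) and knockout (KO) sample. ACTC1 makes up 38.1 to 38.7% of actin in wild type and 19.4 to 20.5% in knockout, and TPM1 74.0 to 74.4% and 60.3 to 61.3% of tropomyosin.

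The skeletal muscle paralogues were low. TNNT3, fast skeletal troponin T, stood at 7.18 ± 0.663 CPM in wild type, against 4.32 ± 0.510 CPM in knockout (-0.73, edgeR adjusted p = 0.000914). Its difference was 0.022 in limma on log2(FPKM + 1) (adjusted p = 0.900), so the fall in counts was not seen in FPKM. NEB, nebulin, averaged 6.57 ± 0.700 and 4.80 ± 0.537 CPM (-0.45, edgeR adjusted p = 0.0188), a call that was lost in DESeq2 (adjusted p = 0.0725) and when any of wild-type replicate 1 (0.0547), wild-type replicate 2 (0.0714) and knockout replicate 3 (0.0694) was left out. TNNI2, TNNC2 and LMOD3, the fast troponins I and C and the skeletal leiomodin, did not pass the filter, and LMOD3 had at most 1.38 estimated counts in any sample. TNNC2 had 27.3 counts in knockout replicate 1 and 3.48 or fewer in each other sample. Of the 11 skeletal muscle markers in the table, MYOD1, MYF6, PAX7, MYH1 and MYH8 had no more than 3 counts in any sample. But 4 of the 11 passed the filter, with 2 lower in knockout and 2 not called, where 28.6% of all genes tested were lower. CKM, which was among those detected, averaged 30.5 ± 0.851 CPM in wild type, against 18.7 ± 0.238 CPM in knockout (-0.71, edgeR adjusted p = 1.49e-06).

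The estimated count, the sample total and the FPKM together imply the length the authors' quantification assigned to a gene, which can move with the mix of transcripts. What moved it was not tested. The groups were also apart for ACTC1 (-0.498%), with means of 1566 bases in wild type and 1559 in knockout. GENCODE has 1 coding transcript of ACTC1, but at 3694 bases it is far longer than the implied length, and RefSeq has further starts. The annotation behind the authors' lengths is not known, so whether the transcript mix of ACTC1 differed was not tested. For the 8 genes with at least 5 FPKM and 50 counts in every sample the shifts were small. TPM1 had 1562 ± 8.18 bases in wild type and 1604 ± 10.6 in knockout, 2.66% longer, and NEBL 7318 ± 25.0 and 7196 ± 12.6, 1.67% shorter. The groups were apart for 6 of the 8 (exact permutation p = 0.1 for each, the smallest possible), against 37% of 7772 genes so covered, and overlapped for TNNT2 and TNNI3. None of the 8 shifted by 5% or more, where 14.5% of those genes did so without overlap. Of their relatives, TPM2 had 1197 ± 6.43 bases in wild type and 1129 ± 1.52 in knockout (-5.65%), and TMOD1 3320 ± 36.9 and 3602 ± 56.3 (8.47%).

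**Figure D5:**
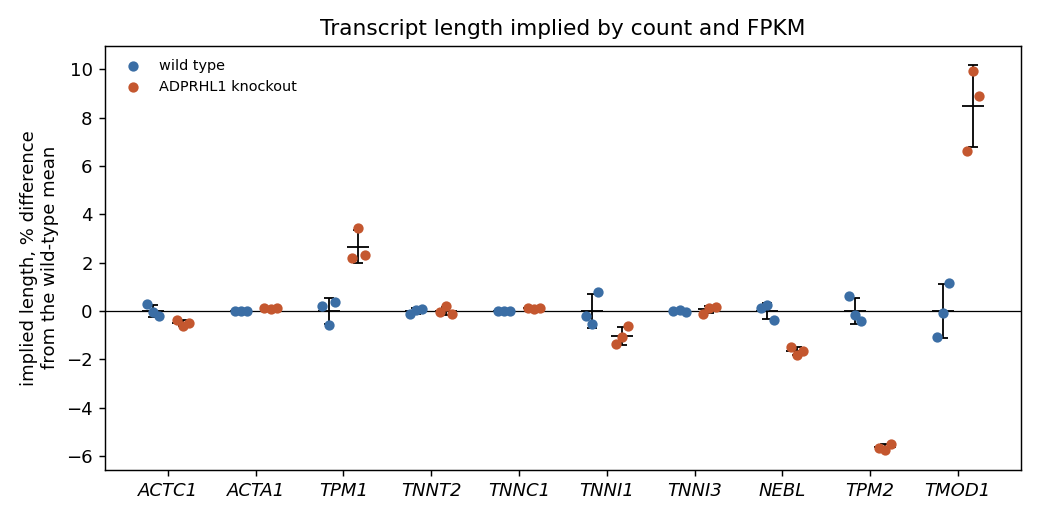
Transcript length implied by the deposited count and FPKM in each sample, as percent difference from the wild-type mean, for the 8 well-covered thin filament genes and for TPM2 and TMOD1. Points are samples and the black marks the mean ± SD of 3 samples. TPM1 is 2.66% longer and NEBL 1.67% shorter in knockout, while TPM2 (-5.65%) and TMOD1 (8.47%) shift further.

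Of 15 transcription factors and cofactors known to act on muscle and cardiac promoters, all tested, 9 were lower, 2 were higher and 4 did not pass, with a median log2 fold change of -0.34. Of all genes tested, 28.6% were lower and 28.4% higher, as above. MYOCD, the cardiac and smooth muscle cofactor of SRF, averaged 296 ± 4.20 CPM in wild type, against 87.1 ± 6.94 CPM in knockout (-1.76, edgeR adjusted p = 1.27e-10). Of the cardiac transcription factors, TBX20 averaged 478 ± 11.6 and 148 ± 7.04 CPM (-1.69), and HAND1 136 ± 9.05 and 52.6 ± 3.24 CPM (-1.37). MRTFA, the actin-regulated SRF cofactor, rose from 87.9 ± 2.25 to 112 ± 4.82 CPM (0.35). HAND2 averaged 178 ± 3.74 and 195 ± 7.84 CPM (0.13, edgeR adjusted p = 0.0344), a call that ended without any 1 wild-type sample or without knockout replicate 3 (adjusted p = 0.0695 to 0.146) and with no filter on low counts (0.125). SRF itself, chosen for mention after its values were seen, stood at 129.9 ± 0.691 and 127 ± 5.39 CPM (-0.03, edgeR adjusted p = 0.602).

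How the summed level of the thin filament genes compared with that of the other cardiomyocyte markers depended on which genes were summed. The ratio of the summed CPM of all 10 genes to that of the 17 markers was 0.652 ± 0.003 in wild type and 0.946 ± 0.017 in knockout. Without MYH6 and TTN, which hold much of the marker sum, it was 1.29 ± 0.005 and 1.54 ± 0.042. ACTC1 and TPM1, the genes with the smallest falls, hold most of the thin filament sum. Without them the ratio to all 17 markers was 0.210 ± 0.004 and 0.222 ± 0.006, and with MYH6 and TTN also left out it turned, to 0.415 ± 0.005 in wild type and 0.360 ± 0.003 in knockout. None of these summed ratios, nor the leaving out of MYH6 and TTN, was among the comparisons set beforehand. Leaving out ACTC1 and TPM1 was chosen after the values were seen. The markers of smallest p were MYH7, beta myosin heavy chain (-2.64), MYOM1, an M-band protein (-2.42), and MYBPC3, myosin-binding protein C (-2.29), all of the thick filament lattice.

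The genes whose profile over the 6 samples lay nearest to the mean of the 10, by Euclidean distance of centred log2 CPM among 10831 other genes with a mean of at least 10 CPM, were CSRP2 (distance 0.092), XIRP1 (0.097), NREP (0.103), CCDC141 (0.104) and PGM5 (0.113). NREP was the most abundant of them, at 1426 ± 34.0 CPM in wild type, against 551 ± 41.2 CPM in knockout. With 6 samples in 2 groups, such likeness follows mostly the size of the fall, and the log2 fold changes of these 5 genes ran from -1.49 to -1.37.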

How the data were processed

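Polyadenylated RNA of 3 wild-type and 3 ADPRHL1 knockout samples was measured. Per the labels' protocols, Trizol was used for extraction and oligo-dT for mRNA selection, and fragments were reverse transcribed from random primers. The submitters' processing notes name hg38; the aligner, counter, annotation and strand setting were not given in the sources used here. For this series the authors deposited, per gene, a read count taken as an estimated count, since 11.96 to 13.1% of values above 0 were whole, and an expression value read as FPKM, a unit inferred because the header of the deposited column names none. Counts are without molecular identifiers, so the floor of 3 counts covers counting error only.

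Rounded counts entered edgeR 4.0.16 under R 4.3.3 (filterByExpr with minimum count 10 and total 15, TMM, robust quasi-likelihood, genotype only, Benjamini-Hochberg, threshold 0.05). CPM used the same factors. Within groups, sample pairs varied beyond counting noise (3.22 to 6.78 as chi-square over its degrees of freedom), so no pair was treated as 1 library deposited again, which does not show separate cultures. Implied length is the count divided by the sample total and the FPKM. The test was also run on counts simulated from its own fit, which cannot show how well that fit describes these samples. Promoter windows came from RefSeq and shared 50-base stretches from GENCODE; TNNI1 and TNNC1 had no window. Alternatives were other scalings, filters, DESeq2 1.42.0, limma 3.58.1 on counts (voom) and on log2 FPKM with pseudocounts of 1 and 0.1 where 3 samples reached an FPKM of 1, a replicate block and leaving out each sample. Unrounded counts were added after the data were seen.

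Members and lists were chosen with earlier results of these data known. The rule for named genes took all 10 members, ADPRHL1, from the lists of other thin filament genes, transcription factors and cardiomyocyte markers the 3 risers and 3 fallers of smallest p, 12 fixed paralogues, and the 5 nearest profiles. Marker lists covered cardiomyocytes, skeletal muscle, smooth muscle, fibroblasts and endothelium. The 8 smooth muscle markers summed to 3806 to 4001 CPM in wild type and 3014 to 3328 in knockout (2 higher, 5 lower), and the 11 skeletal markers in the table to 42.1 to 46.3 and 29.7 to 30.9 CPM (2 lower of 4 tested).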

Additional observations from a re-analysis of the deposited data

How the results depend on the processing

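Each of the 10 genes was lower in knockout past the threshold under all 18 alternatives run. The count of all genes called in either direction had its minimum in limma on log2(FPKM + 0.1), 8227 of 14219 genes, 4079 of them lower. Its maximum was with no filter on low counts, 11510 of 27500 genes, 5938 of them lower. These counts are of different sets of genes tested. Of the 10, LMOD2 moved most, to -1.22 in limma on log2(FPKM + 1), a scale that understates changes of low genes. The log2 difference in TNNI3 to TNNI1 ran from -0.0084 (without knockout replicate 2) to 0.036 (without knockout replicate 3) when single samples were left out; the cause was not tested. Left-out samples gave 0.48 to 0.56 for ACTC1 to ACTA1 and -0.38 to -0.26 for TNNT2 to TNNT1, and on counts the latter was -0.21. The implied length of TNNT2 changed by -0.062% without wild type replicate 1 and by -0.090% without knockout replicate 2, and from -0.090% to 0.059% over all left-out samples, within the spread of replicates. Same-numbered samples did not deviate together (correlations 0.011, 0.095 and -0.238 over 10840 genes), and pairs of different number ran from -0.320 to 0.283. Such correlations within 3 samples a group cannot decide whether same-numbered samples were handled together. With the replicate number as a block, 10819 of 20356 genes were called, 5486 of them lower, and all 10 thin filament genes were called lower. The mean paired ratio differences were 0.012, 0.50 and -0.32. They equal the unpaired ones by arithmetic, so this likeness shows nothing about robustness. Their exact paired permutation p was 0.75, 0.25 and 0.25, where 3 pairs cannot go below 0.25. Not every sample correlated best with its own number. HAND2 was not called under the block (0.12, adjusted p = 0.0950). Depth limits LMOD2, TNNT1, TNNT3 and NEB most.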
